A study of Mus musculus with 4 samples.

Results

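The comparison described here is between the liver of a mouse that lacks Drp1 in hepatocytes and the liver of a control mouse, both taken after refeeding, with 1 array each. These are 2 of the 4 arrays of the series and were chosen by their labels. The control (Cont) was a Drp1 flox/flox littermate, which the labels call wild type, and the knockout (Drp1LiKO) carried Alb-Cre Tg/+ with Drp1 flox/flox, so that the albumin promoter limits the deletion to albumin-expressing cells. Both were male C57BL/6J mice that began a high-fat diet (HFD) at 4 weeks of age and stayed on it for 24 weeks, were fasted for 17 h according to the labels and were refed for 4 h. Whether an array holds RNA of 1 mouse or of pooled mice is not given in the sources used here. The other 2 arrays are a Cont and a Drp1LiKO liver on the same diet whose labels name no feeding state and say that their raw data were also part of an earlier submission. The study describes fasted and refed livers, but no label says which state these are in. They are called the second pair below, and their values are set beside the refed ones without a test.

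Drp1, encoded by Dnm1l, is a dynamin-related GTPase that assembles on mitochondria and divides them. When mitochondria are disturbed, cells can start the integrated stress response, in which phosphorylation of eIF2α favours translation of ATF4 and related factors and, through them, transcription of genes for amino acid synthesis and transport. Refeeding after a fast normally moves the liver from fatty acid oxidation, driven in large part by the nuclear receptor PPARα, to insulin-driven glucose use and lipid synthesis.

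Each level given here is a log2 signal minus that of the array's 75th percentile, so that 0 is this percentile, and each difference is Drp1LiKO minus Cont on that scale. A gene was read from 1 probe. The array reads 30142 genes or transcripts, of which 14595 had a signal well above background in both refed livers, 2303 in the Drp1LiKO liver only, 467 in the Cont liver only and 12777 in neither. With 1 array per group there is no replicate, no p-value and no estimate of the spread between mice. The standard error (SE) given with some differences is that of the scanner's error model, covers measurement error only, and had a median of 0.21. The number of arrays limits the precision of every value.

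Among the genes well above background on both refed arrays, 467 were at least 2-fold higher in the Drp1LiKO liver, 3.2% of those read, and 648 were at least 2-fold lower, 4.44%. The median difference over all of them was -0.08, and 90% of the genes lay between -0.95 and 0.81. The balance of the calls depended on the scaling. The higher genes were 41.9% of the called ones here, 53.7% when the percentile was taken over probes well above background on both arrays, 53.6% after a lowess correction on intensity, and 90.5% when the arrays were scaled to the spiked-in control RNAs, which moved every difference up by 0.54 and the all-gene median to 0.46. Differences of gene groups are therefore read against the all-gene median, and a list whose median lies between -0.54 and 0 here has a median above 0 with that scaling. When the genes were divided into 10 bins by signal, the dimmest bin had a median of -0.34, with 165 genes called lower and 22 higher, and the medians of the other bins lay between -0.16 and -0.01.

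**Figure D1:**
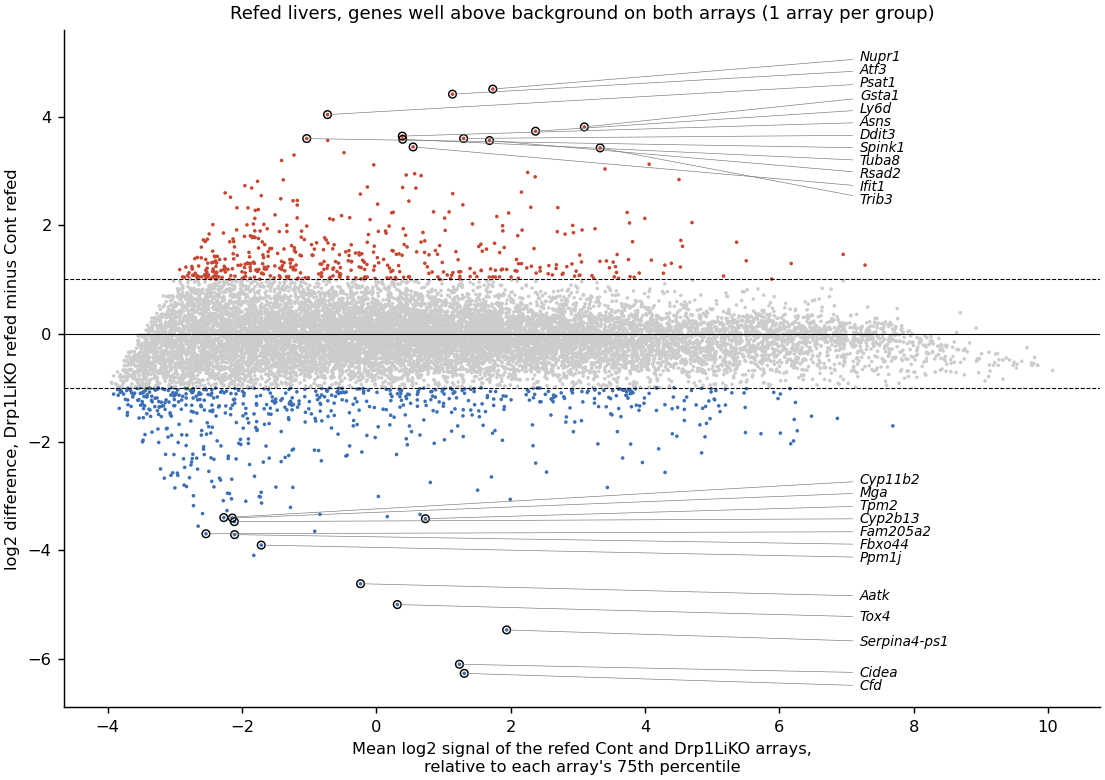
Log2 difference between the refed Drp1LiKO and Cont arrays against the mean log2 signal of both, relative to each array's 75th percentile, for 14595 genes well above background on both arrays. Red points are the 467 genes at least 2-fold higher and blue points the 648 at least 2-fold lower in the Drp1LiKO liver, dashed lines mark 2-fold, and open circles mark the 12 named genes with the largest difference in each direction.

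Dnm1l itself is read by 1 probe, at chr16:16312331-16312390 of the mm9 build, which gave a level of 0.66 in the Cont liver and of 0.54 in the knockout. The difference of -0.12 was smaller than its SE of 0.20. The deleted exons are not given in the sources used here, so it is not known whether this probe can report the deletion, and it does not check the genotype labels. On the probes read, the other genes of mitochondrial division and fusion also stood close together on the arrays. Of 18 such genes with a signal on both, 1 was called lower, the receptor Mief2 (-1.14, SE 0.35, a dim probe), and none was called higher. Over all genes 4.44% were called lower and 3.2% higher. The fusion GTPases Mfn1, Mfn2 and Opa1 had differences of -0.03, -0.25 and -0.59, and a second Opa1 probe gave 0.20. Fis1 differed by -0.31 on the probe read and by -1.125, beyond 2-fold, on another.

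The tissue label was checked against hepatocyte markers, and all 10 were among the bright genes of both arrays. Alb, which encodes albumin, had a level of 10.06 in Cont and 9.51 in Drp1LiKO. All hepatocyte markers but Ass1 were lower in the Drp1LiKO liver, with a median of -0.54, and their summed level was 12.24 in Cont and 11.69 in Drp1LiKO. Markers of Kupffer cells and macrophages went the other way, with a median of 0.57 over 13 genes and 4 called higher, and a summed level of 6.90 in Cont and 7.67 in Drp1LiKO. Trem2 (1.64), Marco (1.61), Lyz2 (1.53) and Vsig4 (1.04) were the 4, against 3.2% of all genes called higher. The Kupffer cell markers Cd5l and Clec4f differed by 0.82 and 0.34, and Itgam (-0.66) was the only one of the 13 below 0. Other immune cell markers had summed levels of 5.84 in Cont and 5.91 in Drp1LiKO for neutrophils, and 4.66 and 4.25 for T and NK cells. These sums were set mainly by the brightest members, Csf3r (-0.031) and Cd4 (-0.465). Of 6 neutrophil markers with a signal on both arrays 3 were above 0 and 3 below, and S100a9 (1.04) was called higher. Of 6 T and NK cell markers 2 were above and 4 below, and Cd3d (1.07) was called higher. In whole liver, fewer cells of a type and less RNA per cell cannot be told apart. Of 9 fat-cell markers, Adipoq, Lep, Plin1 and Retn were not well above background on either refed array, whereas Cfd, Cidec, Fabp4, Lipe and Adrb3 were on both, and the summed level was 5.05 in Cont and 3.44 in Drp1LiKO. The fall in this sum rests on Cfd, which went from 4.45 to -1.83. Cidec, Fabp4, Lipe and Adrb3 differed by -0.24, 0.31, -0.72 and -0.42. Of 8 skeletal muscle markers only Mb was well above background, on the Cont array. In the second pair 6 of the 8, among them Ckm and Acta1, were well above background on the Cont array and none on the Drp1LiKO array.

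Genes of the integrated stress response stood at the top of the ranked differences. Nupr1, a stress-induced chromatin protein whose probe lies at chr7:133766978-133767037 (mm9), had a level of -0.52 in the refed Cont liver and 3.99 in the refed Drp1LiKO liver, a 22.8-fold difference. Atf3, a transcription factor of the same response, went from -1.07 to 3.35, a 21.4-fold difference. Ddit3, which encodes the pro-apoptotic factor CHOP, had -0.50 and 3.10, and the pseudokinase gene Trib3 had 1.62 and 5.05. In each of these the Drp1LiKO level was more than 10 times the Cont level. The glutathione-degrading enzyme gene Chac1 (1.59) and the double-stranded RNA-activated kinase gene Eif2ak2 (1.44) were the other members called higher.

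In all, 6 of 17 regulators of this response were called higher and none lower, against the 3.2% of all genes called higher, and their median was 0.61. Atf4 and Atf5, which are controlled in large part by translation, were bright in both livers and differed by 0.51 and 0.49. Members at the other end of the list were Cebpb (-0.39), Sesn2 (-0.35) and the heme-regulated kinase gene Eif2ak1 (-0.27), and Stc2 was well above background in the Cont liver only and was at least 2.97-fold lower in the Drp1LiKO liver. The same 17 genes had a median of 0.67 in the second pair, with 5 called higher. Ddit3, Chac1 and Eif2ak2 had larger differences after refeeding (3.60, 1.59 and 1.44) than in the second pair (2.09, 0.68 and 0.06), and Ddit4, an inhibitor of mTORC1, had 0.51 against 3.39. In all, 5 of the 17 had the larger difference after refeeding, and the others, among them Nupr1 (4.51 against 5.21), Atf3 (4.42 against 5.58) and Trib3 (3.43 against 4.02), had the larger one in the second pair. These differences between pairs were not tested.

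Enzymes that make asparagine, serine and one-carbon units were called higher in 5 of 12 cases and lower in none, against 3.2% and 4.44% of all genes. Their median was 0.65. Relative to all genes that median was 0.73, and 0.42 when all 4 arrays had to show a signal, which leaves 11 of the genes. Psat1, the serine pathway aminotransferase, had a level of -2.75 in Cont and 1.30 in Drp1LiKO, a 16.5-fold difference. Asparagine synthetase, Asns, had -1.44 and 2.21, a 12.5-fold difference. Got1 (2.13), the cytosolic aspartate aminotransferase, Mthfd1l (2.01), a mitochondrial folate enzyme, and Cth (1.11), of cysteine synthesis, were the others. Phgdh, the first enzyme of serine synthesis, was well above background in the Drp1LiKO liver only and was at least 3.60-fold higher there. The partner enzymes Psph (0.96), Shmt1 (-0.22) and Shmt2 (-0.57) did not reach 2-fold. Of 10 amino acid transporters, the cationic transporters Slc7a1 (1.94) and Slc7a2 (1.06) were called higher. The cytosolic aminoacyl-tRNA synthetases had a median of 0.22, with Rars alone called higher among 19 and none with normexp background correction, which also ended the call of Slc7a2, and the mitochondrial ones had a median of -0.25 with no call among 15.

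The promoters of these genes were searched for the C/EBP-ATF response element, the sequence bound by ATF4 and CHOP with C/EBP proteins, in the forms TGATGCAA and TGATGNAA on both strands. Every TGATGCAA is also a TGATGNAA. Windows ran from 250 bases before to 50 after the gene start in RefSeq (GRCm38.p6), and genes were matched by symbol, which gave windows for all 18 stress response regulators and for 15 of the 17 synthesis enzymes. The stricter form was in 4 of the 18 regulators, Atf3, Chac1, Jdp2 and Nupr1, and in 2 of the 15 enzymes, Got1 and Pycr1, against 1.03% of all 27025 genes with a window. The wider form added Trib3 and Asns and was in 4.51% of all genes. Shown here are stretches before the start of 4 genes with large differences, read along the strand of the gene, with the match in capitals.
Nupr1, chr7:126625543-126625610, minus strand: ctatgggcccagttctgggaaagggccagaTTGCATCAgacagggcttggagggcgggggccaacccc
Atf3, chr1:191183406-191183473, minus strand: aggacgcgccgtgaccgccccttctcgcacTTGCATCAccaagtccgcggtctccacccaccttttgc
Asns, chr6:7693210-7693262, minus strand: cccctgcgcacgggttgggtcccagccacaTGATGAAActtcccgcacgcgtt
Got1, chr19:43524670-43524737, minus strand: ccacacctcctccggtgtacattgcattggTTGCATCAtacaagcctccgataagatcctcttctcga
In Nupr1 and Atf3 the match ended 102 bases before the gene start, in Got1 94 and in Asns 15. Jdp2, with a match 25 bases before its start, differed by 0.61, Pycr1, with a match 95 bases before its start, by -0.30 with a signal well above background in the Drp1LiKO liver only, and Ddit3 held neither form in its window. A match is a description of the sequence and not evidence that a factor was bound.

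**Figure D2:**
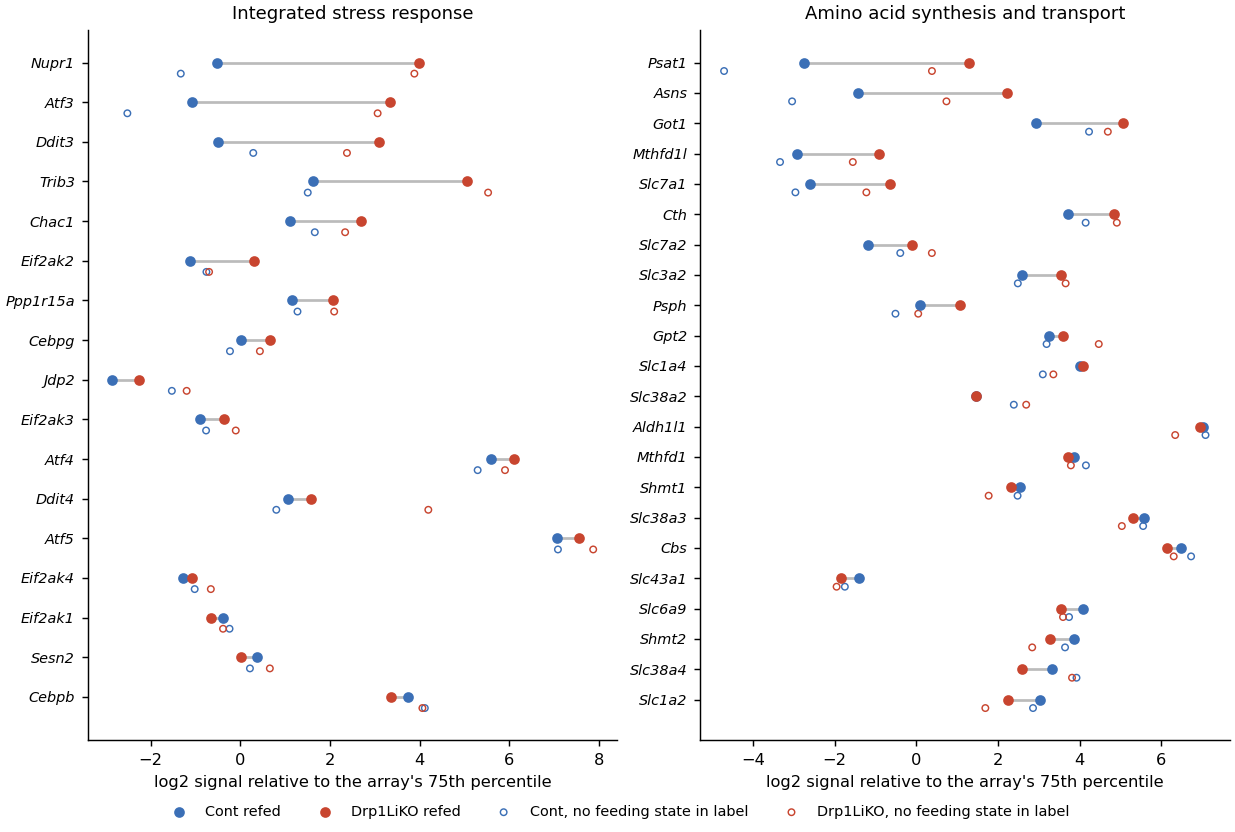
Log2 level relative to the array's 75th percentile in the refed Cont (filled blue) and Drp1LiKO (filled red) livers for integrated stress response regulators (left) and for genes of amino acid synthesis and transport (right), with the second pair as open circles, 1 array per point. Nupr1, Atf3, Psat1 and Asns have the widest gaps, from 3.65 to 4.51, and the open circles repeat the same order of genotypes for these genes.

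None of 22 endoplasmic reticulum chaperones and Xbp1-arm genes was called in either direction, and Hspa5, the chaperone BiP, differed by 0.33. Dnajb11 differed by -0.24 on the probe read and by -2.54 on another. None of 15 mitochondrial chaperones and proteases was called, and Hspa9, the mitochondrial Hsp70, had the highest value, 0.52. The 26 nuclear-encoded subunits of the respiratory complexes were all below 0, from -0.51 for Cox4i1 to -0.11 for Atp5a1, with a median of -0.30 and no call. With spike-in scaling all 26 were above 0, so their direction is relative to the other genes. Among antioxidant genes, Cbr3 (2.95), Srxn1 (1.72) and Hmox1 (1.02) were called higher of 23, and of 21 glutathione S-transferases Gsta1 (3.81) and Gsta2 (2.24) were higher and Gstt1 (-1.27) lower. Over all genes 3.2% were called higher and 4.44% lower. Gsta1 and Gsta2 are near-identical in sequence, so each probe may also report the other gene. The hormones induced by this response behaved unlike each other. Fgf21 had a level of 3.23 in Cont and 2.56 in Drp1LiKO after refeeding, a difference of -0.67, against 2.58 in the second pair. Gdf15 differed by 0.28 after refeeding and by 1.24 in the second pair.

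Interferon-stimulated genes were the list with the highest median in the refed pair. Of 24 members with a signal on both arrays, 17 were called higher and none lower, against 3.2% and 4.44% of all genes. The median was 2.19. Rsad2, which encodes the antiviral enzyme viperin, had a level of -0.10 in the refed Cont liver and 3.47 in the refed Drp1LiKO liver. Ifit1, whose product binds viral RNA, had -1.17 and 2.27. The oligoadenylate synthetase Oas1a had 1.89 and 4.92, the chemokine Cxcl10 had 0.92 and 3.81, and the antiviral GTPases Mx1 and Mx2 differed by 2.84 and 2.70. The ubiquitin-like modifier Isg15, bright in both livers, had 3.68 and 5.72. Ifit2 was well above background in the Drp1LiKO liver only and was at least 5.77-fold higher there.

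Transcription factors of the interferon pathway had smaller differences, with 1.90 for Irf7, 0.70 for Irf9, 0.64 for Stat2 and 0.34 for Irf1. The chemokine gene Cxcl9 (-0.03) and the guanylate-binding protein gene Gbp2 (0.12) had the smallest differences of the list, and Gbp3, of the same family as Gbp2, was called higher (1.71). The same 24 genes had a median of 0.96 in the second pair, with 11 called higher and none lower, and 22 of the 24 had a larger difference after refeeding. Mx2 differed by 2.70 after refeeding and 0.45 in the second pair, Ifit3 by 2.61 and 0.92, and Ifi44 by 3.34 and 2.65. The difference between the pairs was not tested. The macrophage markers given above moved in the same direction, and their part in this result was not tested. Under every scaling tried, between 17 and 21 of the 24 were called higher and none lower.

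The promoters of these genes were searched for the core of the interferon-stimulated response element, written GAAANNGAAA, on both strands. This motif was chosen after the expression values had been seen. Of 26 list members, 18 were matched to a window, and 10 of these held it, against 3.99% of all 27025 genes with a window. Stretches before the start of 5 of them are shown, read along the strand of the gene, with all matches in capitals, and overlapping matches merged.
Rsad2, chr12:26456533-26456602, minus strand: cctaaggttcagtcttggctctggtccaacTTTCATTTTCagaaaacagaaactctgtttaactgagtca
Ifit1, chr19:34640755-34640843, plus strand: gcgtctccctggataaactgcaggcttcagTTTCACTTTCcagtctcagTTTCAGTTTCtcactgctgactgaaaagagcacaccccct
Oas1a, chr5:120907526-120907575, minus strand: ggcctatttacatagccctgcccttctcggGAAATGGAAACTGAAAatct
Isg15, chr4:156200845-156200926, minus strand: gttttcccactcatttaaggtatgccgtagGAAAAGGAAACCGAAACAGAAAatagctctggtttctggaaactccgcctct
Gbp2, chr3:142620574-142620643, plus strand: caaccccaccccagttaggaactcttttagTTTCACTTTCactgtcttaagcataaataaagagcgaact
Isg15 held 3 overlapping matches and Ifit1 held 2 separate ones. Gbp2 is shown because it held a match 49 bases before its start while its difference was 0.12. The 10 genes with a match had a median difference of 2.33 and the 7 measured genes without one 1.90.

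Genes of nucleic acid sensing and of the inflammasome were called higher in 5 of 19 cases and lower in none, against 3.2% and 4.44% of all genes. These were Casp4 (2.23), an inflammatory caspase, the DNA sensor Ifi204 (1.65), the caspase Casp1 (1.26), and the RNA sensors Ddx58 (1.18) and Ifih1 (1.17). The caspases are inflammasome members of the list and not sensors of nucleic acid. Their differences in the second pair were 1.23, 1.06, 0.10, 0.23 and 0.58. The DNA sensor Cgas (0.66, SE 0.29) was dim, and the adaptors Sting1 (0.33) and Mavs (-0.13) had small differences. Of 15 cytokine and chemokine genes 5 were called higher, Cxcl10 (2.89), Cxcl13 (1.62), Ccl5 (1.29), Cxcl1 (1.19) and Ccl6 (1.08), and 8 others, among them Tnf, Ccl3 and Ccl7, were well above background in the Drp1LiKO liver only, as were 2303 of all 30142 genes. The lowest signal well above background was 22.5 on that array and 30.5 on the Cont array, and 1341 of the 2303 genes had no bound on their difference. Of 26 acute-phase genes, Apcs (2.33), Orm3 (2.16) and Lcn2 (1.70) were called higher and Saa4 (-1.42) lower, and Saa1 differed by 0.42 against -2.11 in the second pair.

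DNA replication genes were higher in the refed Drp1LiKO liver. The MCM helicase, which unwinds DNA at replication origins, had 5 subunit genes called, Mcm6 (2.38), Mcm5 (2.12), Mcm4 (1.89), Mcm2 (1.64) and Mcm3 (1.53), and Mcm7 differed by 0.69. Mcm6 had a level of 0.10 in Cont and 2.48 in Drp1LiKO. With the mitotic kinase gene Aurka (1.30, SE 0.29) and the cyclin gene Ccnd1 (1.27), 7 of 15 cell cycle genes were called higher and none lower. The shares over all genes were 3.2% and 4.44%, and the median of the 15 was 0.81. The same 5 MCM genes differed by 0.51 to 1.17 in the second pair, and with normexp background correction 5 rather than 7 of the 15 genes were called. The mitotic genes Ccna2, Top2a and Aurkb were not well above background on either refed array, and Mki67 was so on the Drp1LiKO array only. Foxm1, a transcription factor of mitotic genes, was well above background in the Cont liver only and was at least 25.8-fold lower in the Drp1LiKO liver, on 1 of its 2 probes. The growth arrest gene Cdkn1a (1.88) and the immediate early genes Myc (2.60), Egr1 (1.69) and Klf6 (1.62) were also called higher.

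**Figure D3:**
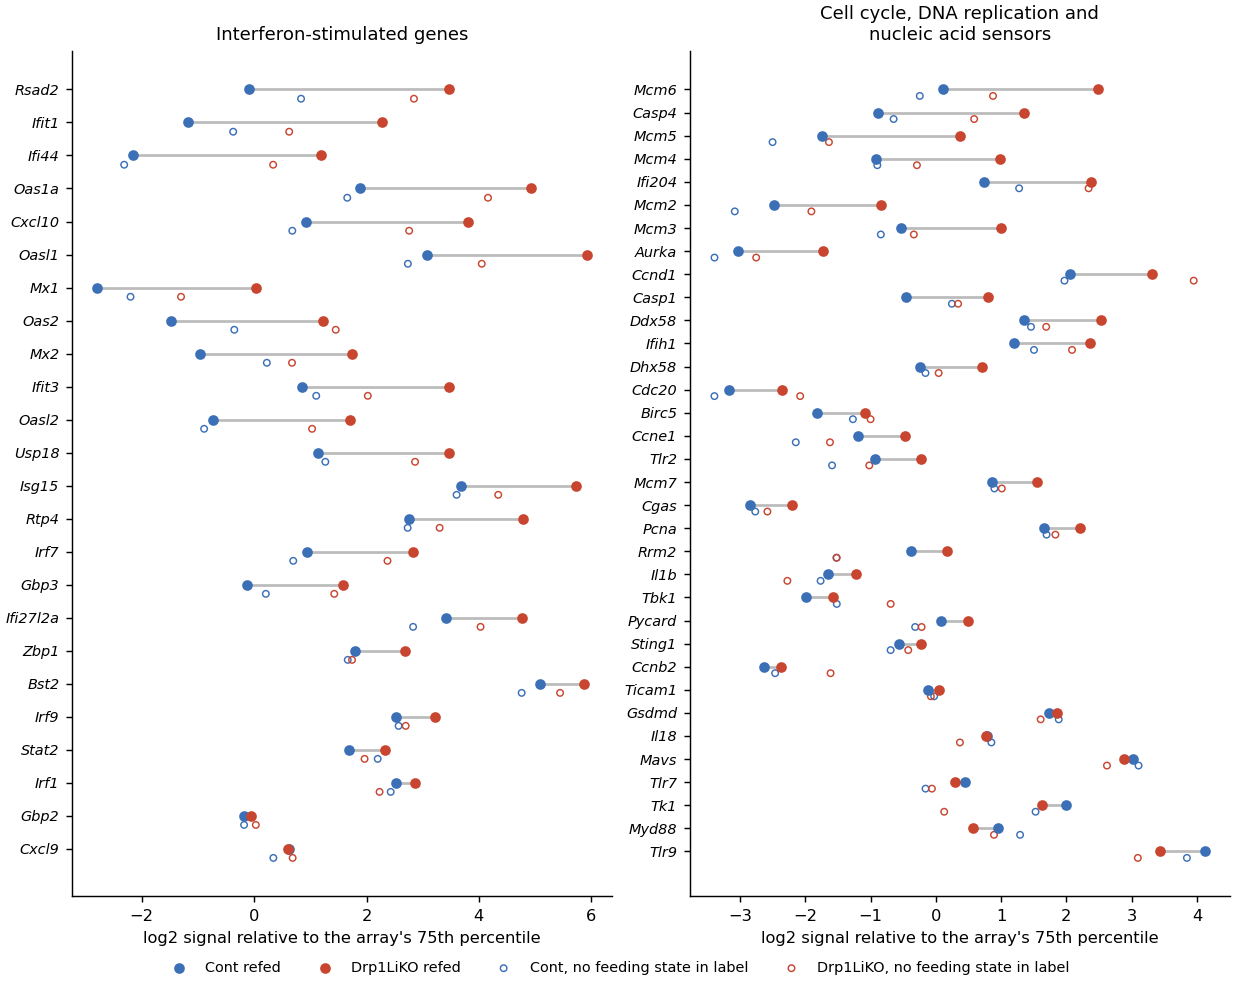
Log2 level relative to the array's 75th percentile of interferon-stimulated genes (left) and of cell cycle, DNA replication, nucleic acid sensor and inflammasome genes (right) in the refed Cont (filled blue) and Drp1LiKO (filled red) livers, with the second pair as open circles, 1 array per point. The gap between filled points is wider than that between open points for 22 of the 24 interferon-stimulated genes.

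Many targets of PPARα had lower levels in the refed Drp1LiKO liver. The hepatocyte markers given above moved in the same direction, with 9 of 10 below 0 and a median of -0.54, and their part in this result and in those on lipid droplet, insulin-regulated, CAR and PXR genes was not tested. Of 26 genes, 11 were called lower and 1 higher, against 4.44% and 3.2% of all genes, with a median of -0.86. Ppara itself had a level of 5.10 in Cont and 3.71 in Drp1LiKO. Pex11a, of peroxisome division, had 6.65 and 4.80. The acyl-CoA thioesterase genes Acot1 and Acot3 differed by -2.38 and -3.34, and the fat storage-inducing protein gene Fitm1 by -2.39. Acot1 and Acot3 are close copies and may share probe signal. Exceptions were Ehhadh (1.26), a peroxisomal β-oxidation enzyme, and Cyp4a10 and Cyp4a14, which differed by 0.16 and 0.08. In the second pair the median of the 26 genes was -0.42, with 3 called in each direction, and the refed difference was the lower one in 25 of the 26. Acot1 differed by 0.03 there and Cpt1a, the gate of mitochondrial fatty acid import, by 0.24 against -0.56 after refeeding. With spike-in scaling 6 of the 26 were called lower.

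The list of lipid droplet proteins and lipases held both of the largest negative differences of the refed pair. Like the other lists it was chosen with earlier results of these data known, so this is no independent result. Cfd, which encodes the secreted complement factor adipsin, is known mainly from fat cells and is no droplet protein, and had a level of 4.45 in Cont and -1.83 in Drp1LiKO, a 77.3-fold difference. Cidea, a droplet fusion protein induced in fatty liver, had 4.29 and -1.81, a 68.8-fold difference. Its relatives did not share this, with -0.24 for Cidec and -0.49 for Cideb. Of the 24 members measured, 6 were called lower and none higher, the others being Mogat1 (-2.16), G0s2 (-1.91), Plin4 (-1.39) and the monoglyceride lipase gene Mgll (-1.34). Over all genes 4.44% were called lower and 3.2% higher. The droplet coat genes Plin2 and Plin5 differed by -0.67 and -0.91. The median of the 24 was -0.37, and 0.17 with spike-in scaling, with which 4 stayed called lower. Cfd and Cidea differed by -5.07 and -3.12 in the second pair, and Cidec by 1.58.

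Insulin-regulated genes of glucose use and lipid synthesis had a median of -0.37, and 0.17 with spike-in scaling. For the counts that follow, 3.2% of all genes were called higher and 4.44% lower. Of 30 genes 4 were called lower and none higher, among them Scd1 (-2.13), the main fatty acid desaturase, G6pc (-1.90), the catalytic subunit of glucose-6-phosphatase, and Thrsp (-1.32), a lipogenic regulator. Srebf1, the insulin-responsive activator of lipid synthesis, differed by -0.39 after refeeding and by -1.65 in the second pair, and Fasn by -0.10 and -0.97. Cholesterol genes differed from these, with 5 of 20 called higher and Stard4 (-1.04) called lower, and a median of 0.66. Sqle, squalene epoxidase, had a level of -1.59 in Cont and 1.52 in Drp1LiKO, an 8.67-fold difference. The synthesis enzymes Dhcr7, Mvd and Msmo1 differed by 1.23, 1.19 and 1.06, and Srebf2, the regulator of the pathway, was at least 5.66-fold higher with a signal well above background in the Drp1LiKO liver only. The median of the 20 genes was 0.02 in the second pair. Stard4 was no longer called under any other scaling, and with normexp background correction 2 rather than 5 of the 20 were called higher.

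Xenobiotic and bile acid genes were also unequal between the refed livers. Of 13 genes tied to the receptors CAR and PXR, 6 were called lower and none higher, against 4.44% and 3.2% of all genes. Their median was -0.98. Cyp2b13 (-3.47), Cyp2b10 (-2.89), Cyp3a41b (-1.92), Cyp3a11 (-1.83), Cyp3a16 (-1.69) and the P450 reductase gene Por (-1.01) were the 6. The Cyp3a genes had differences of the other sign in the second pair, 0.60 for Cyp3a41b, 0.23 for Cyp3a11 and 0.75 for Cyp3a16, whereas Cyp2b10 was lower there too (-1.35). Genes within the Cyp2b and Cyp3a families are near copies and their probes are not independent. Cyp7a1, the rate-limiting enzyme of bile acid synthesis, differed by 1.61 and Nr0b2, which encodes the repressor SHP that acts on it, by -1.36, while in the second pair they differed by -0.17 and 0.69. Por lost its call under every other scaling.

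**Figure D4:**
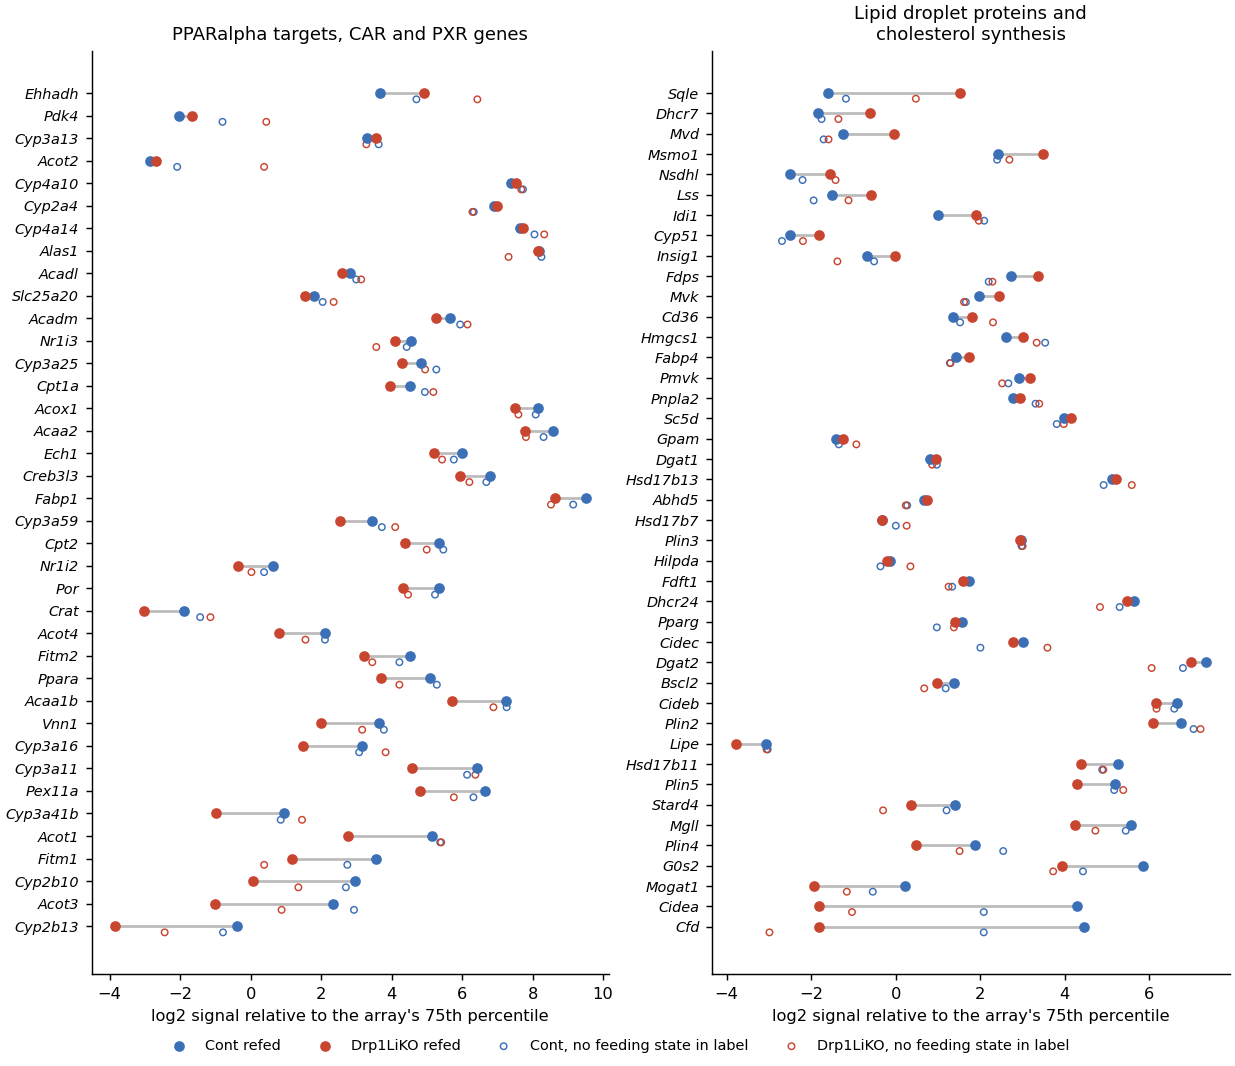
Log2 level relative to the array's 75th percentile of PPARα targets with CAR and PXR genes (left) and of lipid droplet and cholesterol genes (right) in the refed Cont (filled blue) and Drp1LiKO (filled red) livers, with the second pair as open circles, 1 array per point. Cidea and Cfd have the widest gaps, with differences of -6.11 and -6.27, and Sqle has the widest gap in the other direction, 3.12.

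Some of the largest differences were in genes outside the groups above. Ly6d, a surface protein of the Ly6 family, was higher by 3.74, the trypsin inhibitor gene Spink1 by 3.60 and the tubulin gene Tuba8 by 3.59, and in the second pair these differed by 3.69, 2.50 and 2.73. Serpina4-ps1, a pseudogene read at chr12:105325060-105325119 (mm9), had levels of 4.68 and -0.79, and its probes gave -5.47 and -5.45. The kinase gene Aatk differed by -4.62, and the probes of the tropomyosin gene Tpm2 gave -3.59 and -3.42. Other large negative differences were not shared by all probes of the gene. Tox4 was 32.1-fold lower on one probe, with a log2 difference of 0.57 on another, and Fbxo44 had -3.71 and -0.12. Fam205a2 had -3.70, -0.64 and -0.39 on probes well above background on both arrays. Another of its probes, well above background in the Cont liver only, had levels of -1.95 in Cont and -6.71 in Drp1LiKO. For Ppm1j (-3.90), Mga (-3.40) and Cyp11b2 (-3.40) only 1 probe was well above background on both arrays, and each was dim in the Drp1LiKO liver. On the second pair Ppm1j and Cyp11b2 were not well above background on either array, and Mga differed by 0.44.

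Of all genes called in either direction, 155 had several probes well above background on both arrays, and in 135 of these all such probes went in 1 direction. Among the 131 called list members this was so for 17 of 17. Among genes well above background on 1 array only, 239 of the 2303 seen in the Drp1LiKO liver and 466 of the 467 seen in the Cont liver were at least 2-fold apart by their bound, which sets the dim array at the higher of its own value and its lowest signal well above background. That signal was 22.5 against a 75th percentile of 526 on the Drp1LiKO array, and 30.5 against 357 on the Cont array. Genes seen in the Cont liver only, with a Drp1LiKO value under that signal, thus reach a bound near 2-fold or more by construction. Those seen in the Drp1LiKO liver only do not, so the 2 counts cannot be compared. The largest bounds in the Drp1LiKO liver were those of Moxd1 (at least 18.2-fold), Meg3 (17.6-fold), E030018B13Rik (17.3-fold), the acylglycerol acyltransferase gene Mogat2 (13.8-fold) and the growth factor gene Nrg1 (13.7-fold). In the Cont liver they were those of Pcdhgb1 (at least 34.0-fold), Lrrc63 (27.2-fold), Rhbdd1 (26.7-fold), Nek11 (26.7-fold) and Foxm1 (25.8-fold). Of these 5 genes only Nek11 was also well above background on the Cont array of the second pair, with a level of -3.31 there against 0.19 after refeeding.

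**Figure D5:**
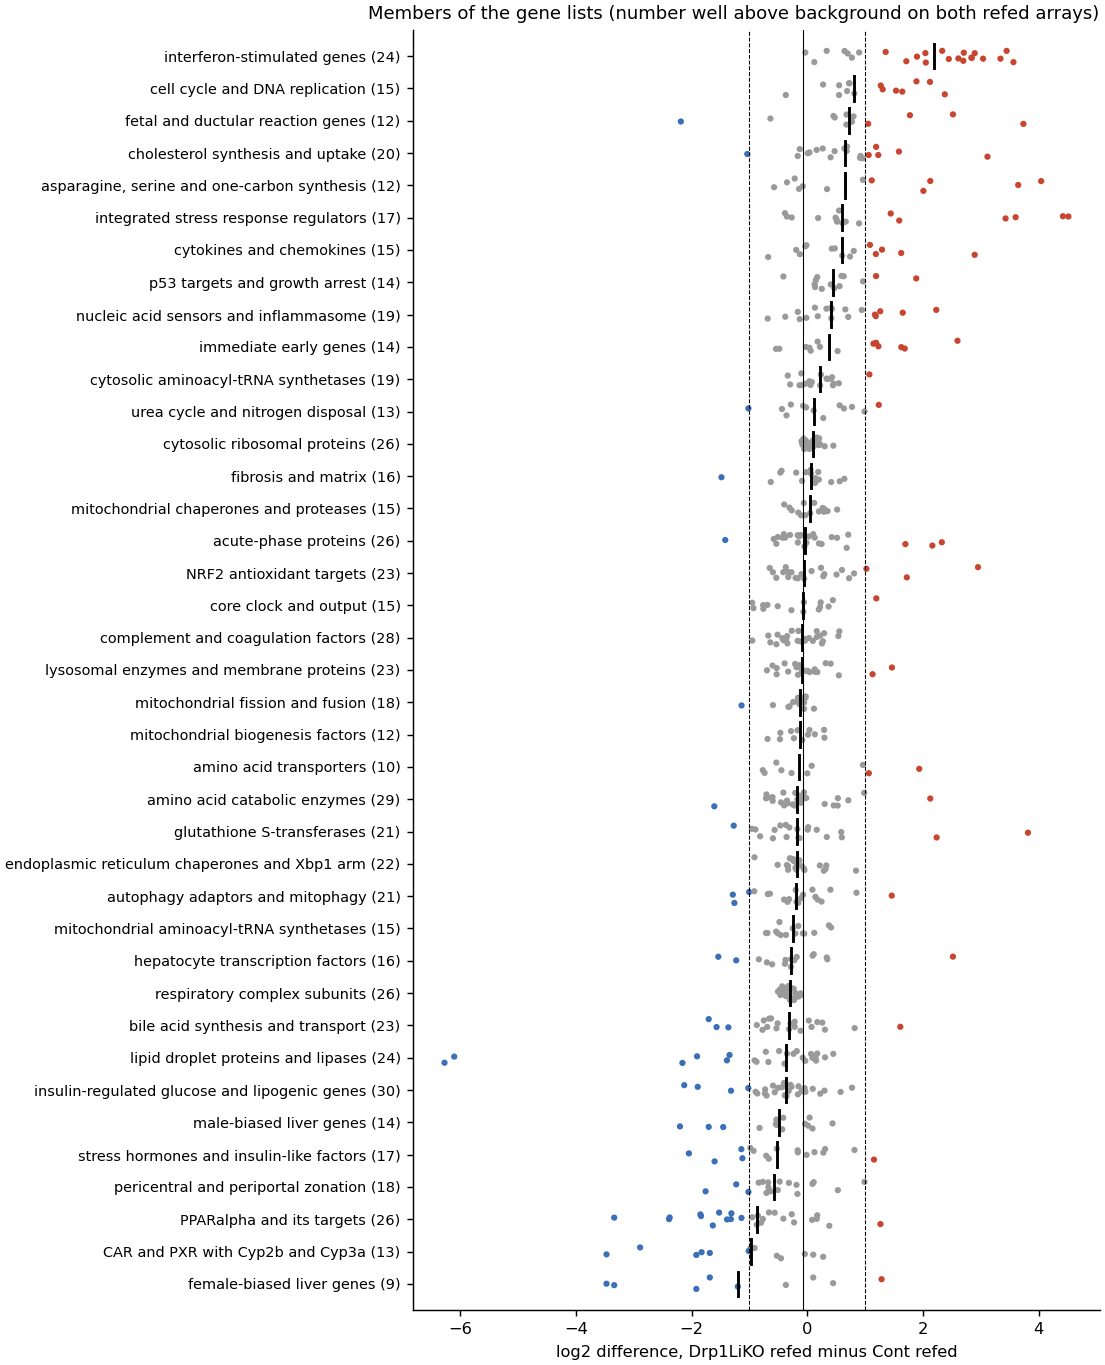
Log2 difference (Drp1LiKO refed minus Cont refed) of every member of the 39 gene lists that was well above background on both refed arrays, with the number of such members in brackets. Bars are list medians, the solid line is the all-gene median of -0.08, dashed lines mark 2-fold, and red and blue points are called higher and lower. Interferon-stimulated genes have the highest median, 2.19, and female-biased liver genes the lowest, -1.20.

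Lists at the middle of that order had few calls, to be read against 3.2% of all genes called higher and 4.44% called lower. Complement and coagulation factors had none in either direction among 28 genes, ribosomal proteins none among 26, with a range from -0.10 to 0.45, and fibrosis and matrix genes 1 among 16, Timp1 (-1.48). In the second pair 8 of the same 16 matrix genes were called higher and their median was 0.93, against 0.06 after refeeding. Of 21 autophagy genes the adaptor Sqstm1, which encodes p62, was higher by 1.46, and the initiating kinase Ulk1 (-1.26), Bcl2l13 (-1.29) and Map1lc3a (-1.01) were lower. Of 23 lysosomal genes, Ctsl (1.46) and Ctss (1.13) were higher. The female-biased list rests on 9 measured genes, 5 of them lower and 1 higher, and shares Cyp2b13, Cyp3a16, Cyp3a41b and Acot3 with the lists above. The fetal and ductular list had 4 genes called higher, among them Ly6d, Afp (1.77) and Anxa2 (1.05), and Krt23 (-2.19) lower among 12.

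The other lists each held a few called genes. Over all genes 3.2% were called higher and 4.44% lower, and amino acid catabolic genes, with 3.45% each way, were near these shares. Of 17 stress hormones and insulin-like factors, Igfbp1 (1.15), which binds insulin-like growth factors, was higher, and Socs2 (-2.05), Angptl4 (-1.60), Inhbe (-1.14) and the leptin receptor gene Lepr (-1.12) were lower. Their median was -0.53, and 0.02 with spike-in scaling. Igfbp1 differed by 3.68 and Angptl4, an inhibitor of lipoprotein lipase, by -0.15 in the second pair. Of 14 immediate early genes 6 were called higher, of 14 p53 targets 2, and of 15 clock genes 1, with none lower in these lists, and with normexp background correction these counts were 3, 1 and 0. Among 23 bile acid genes Cyp7a1 was higher and Nr0b2, Slco1a1 and the sterol exporter gene Abcg8 (-1.57) were lower. In the urea cycle Cps1 (1.24), its entry enzyme, was higher and glutamine synthetase, Glul (-1.02), was lower among 13 genes. Of 29 amino acid catabolic genes Got1 was higher and Csad (-1.61), of taurine synthesis, was lower. Hepatocyte transcription factors were called in 3 of 16 cases, among them Onecut1 (-1.54) and Tbx3 (-1.23), which were lower. Of 18 zonation genes 3 were called lower and none higher, but 1 higher and 2 lower under median, quantile and lowess scaling and 2 higher and 1 lower with spike-in scaling. Of 14 male-biased genes 3 were called lower, Hsd3b5 (-2.20), Slco1a1 (-1.71) and Elovl3 (-1.45), and none higher. Moxd1, also of this list, was well above background in the Drp1LiKO liver only and was at least 18.2-fold higher there. The calls of Mief2, Glul and Map1lc3a each ended under at least 1 other scaling. None of 12 mitochondrial biogenesis factors was called in either direction.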

How the data were processed

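Liver RNA was labelled in 1 colour and hybridized to Agilent 4x44K mouse arrays, all on 1 slide. The methods name another array design and RNA kit than the labels, and the files carry the design of the labels. The intensity values deposited by the authors are processed signals that, per the file headers, Feature Extraction 10.7.1.1 made by subtracting background within each array (the submitters' processing notes give 9.5.1.1). They are linear and not normalized between arrays. The authors' table of normalized intensity values served as an alternative. Here, spots with outlier flags were left out (37 of 39429 probes), and log2 signals were averaged over repeated spots and set relative to the 75th percentile, which was 357 in the refed Cont array and 526 in that of Drp1LiKO. The 399 probes printed 10 times had a median SD of 0.08 and 0.07. Between 48.7% and 55.4% of gene spots were well above background on the refed arrays. Names came from RefSeq (GRCm38.p6), by accession for 26856 probes and by symbol for 4375, and 8198 kept the file's name. A gene was read from the probe well above background on more refed arrays, then the brighter. A gene was called at 2-fold, without a test. Members, the 39 gene lists and the 12 marker lists were chosen with earlier results of these data known. Named genes are Dnm1l, list and marker members, the 12 largest differences and 5 largest bounds in each direction, and list members 2-fold apart in opposite directions in both pairs. Some list members count in the totals but are not reported here by name or in the plots of levels. Alternatives were other scalings, background corrections, probe choices, filters and thresholds. The call was tested on simulated data. Scripts ran in Python 3.11.15 (pandas 2.3.3, numpy 2.4.6, statsmodels 0.14.6) and in R 4.3.3 with limma 3.58.1, used for normexp with an offset of 50.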

Additional observations from a re-analysis of the deposited data

Results flagged for a closer look

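Among the list members, 3 were at least 2-fold different between Drp1LiKO and Cont in both pairs and in opposite directions. Krt23, a keratin, had levels of 0.88 in Cont and -1.31 in Drp1LiKO after refeeding and 1.39 and 2.74 in the second pair. Its refed difference minus that of the second pair was -3.53. The neutrophil-attracting chemokine Cxcl1 had -0.77 and 0.42 after refeeding and 0.41 and -0.78 in the second pair, a gap of 2.38 between the differences of both pairs. The neutrophil protein S100a9 had 1.49 and 2.53 after refeeding and 1.44 and 0.33 in the second pair, a gap of 2.15. With 1 array per group the difference between the pairs was not tested for any of them.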

How the results depend on the processing

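The count of genes at least 2-fold higher or lower, 467 and 648, stayed within 1.5 times under scaling to the median, scaling to bright probes, quantile normalization, the authors' values, the median over probes, a filter on all 4 arrays, outlier spots kept, lowess, and a call that also had to pass 2 measurement SEs. It moved to 1869 and 197 with spike-in scaling, to 265 and 353 with normexp, to 1403 and 1114 when a signal on at least 1 refed array was enough, to 1584 and 3410 with no filter, and to 1322 and 2209 at a 1.5-fold threshold. With the 5th percentile of bright signals as the dim value, 137 rather than 239 genes seen in the Drp1LiKO liver only, and 316 rather than 466 seen in the Cont liver only, were 2-fold apart by their bound. The looser filters and threshold admit more genes by construction, and spike-in scaling adds 0.54 to every difference. For normexp the cause was not tested, and 260 of the 467 and 353 of the 648 genes kept their call. No difference of a called list member or of the largest changes turned its sign under any alternative. These genes were chosen at 2-fold or more, so scalings that shift all differences alike, by at most 0.54, could not have turned one. List medians relative to all genes moved by less than the median SE in 421 cases and by more in 47, of which 37 came from leaving out the filter. Scaling to the median, to bright probes or to spike-ins shifts all genes alike and could not move these medians. Each of these scalings gave 39 of the 421 cases, which therefore say nothing on robustness. That of interferon-stimulated genes ranged from 2.19 to 2.55, that of PPARα targets from -0.82 to -0.51 and that of cholesterol genes from 0.57 to 1.02. No paired analysis was possible because each group has 1 array. Dim probes, where 1 array decides a fold, set the limit of what can be read.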
